A study of Sus scrofa with 14 samples.

Results

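The outer zone of the porcine medial meniscus was compared with cells grown from that zone to the third passage (P3), in 5 of the 14 RNA sequencing libraries of the study, which were chosen by the zone and cell state in their labels. The members are 3 libraries of outer meniscus tissue, numbered 2, 3 and 6, and 2 libraries of outer P3 cells, numbered 147 and 148. Knees came from skeletally mature female pigs aged 2 to 3 years, with no gene altered and no agent added to any group. Outer tissue was cut with a biopsy punch and kept for 3 days as an explant in high-glucose DMEM with serum, ascorbate and proline, while outer P3 cells were released from the outer zone with pronase and collagenase and expanded as a monolayer in the same medium. Tissue and cells did not come from matched donors, and tissue was pulverised in TRIzol before column purification while cells went onto the column directly, so passaging, donor and extraction cannot be told apart. The other 9 libraries hold inner zone tissue (n = 3), inner zone P3 cells (n = 3) and cartilage (n = 3).

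The meniscus is a fibrocartilage whose outer zone carries blood vessels and fibroblast-like cells in a type I collagen matrix, and whose inner zone holds rounder cells with more aggrecan and type II collagen. Cells of cartilage and meniscus that are plated on plastic flatten, build stress fibres, and are known to lose proteoglycan and type II collagen transcripts over passages, a process called dedifferentiation. In bulk RNA, fewer cells of a type and less RNA per cell cannot be told apart.

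Reads counted on genes were 24440213 to 37270933 in outer tissue and 34924041 to 42767038 in outer P3 cells. Levels are TMM-scaled counts relative to library size (CPM), always in the order tissue 2, 3 and 6 and then P3 147 and 148. The logFC is the log2 ratio of P3 cells over tissue from edgeR, so a positive logFC means a higher level in P3 cells. Its standard error (SE) is approximate. It was worked back from the F statistic, as the size of the logFC over the square root of F. Genes with an adjusted p under 0.01 and a logFC beyond 1 in size were called. Where a stricter setting ended a call or moved a count of calls more than 1.5-fold it is named beside the value, and those settings were a fit on only the 5 outer libraries, a test against the 2-fold threshold itself, and fits without 1 library. A fit without a P3 library leaves 1, which is then assumed to vary like the libraries of the other groups.

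Outer tissue 2 stood apart from the other outer tissue. On variance-stabilised counts its distance was 70.9 to outer tissue 3 and 72.7 to outer tissue 6, but 48.3, 49.4 and 54.6 to the 3 inner tissue libraries, while outer tissue 3 and 6 were 44.4 apart. Both P3 libraries lay 38.7 apart and 118 to 144 from outer tissue. Summed over the cartilage matrix list, outer tissue 2 held 26394 CPM against 16777 and 9850 CPM in tissue 3 and 6, and over the endothelial marker list 144 CPM against 890 and 419 CPM. Explants came from different positions along the meniscus, and which position this library holds is not given in the labels. The paper also reports an outer zone sample that grouped with inner tissue. It states that the overlapping samples were cut nearer the horns and the rest nearer the mid-body, without giving their numbers. Whether the zone label or the position of outer tissue 2 accounts for these distances was not tested. The outer tissue values therefore hold a library that resembled inner tissue, and results are given without it where it changes them.

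Of 15707 tested genes 2617 were called (16.7%), 1313 higher (8.36%) and 1304 lower (8.3%) in P3 cells, around a median logFC of -0.01 over all tested genes. The groups did not overlap for 9634 genes (61.3%), with every P3 library above every tissue library for 5039 (32.1%) and below for 4595 (29.3%). These shares of all tested genes are the background of the list counts below. Among the called genes 145 were over 32-fold higher and 197 over 32-fold lower in P3 cells. Calls numbered 1516 with only the 5 outer libraries, 945 against the 2-fold threshold itself, 1688 without P3 147 and 1592 without P3 148.

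The genes with the steepest rise were close to silent in tissue. CHRDL1, an antagonist of bone morphogenetic proteins (BMPs), had 3 reads in all outer tissue together and 9932 in P3 cells, a ratio of scaled levels of 4029 with a 95% counting interval from 1378 to 19542. GABBR2, a subunit of the metabotropic GABA receptor, had 0 reads in tissue and 1080 in P3 cells, at least 438-fold higher. MFAP5, a microfibril protein of elastic fibres, had 2 reads in tissue and 2477 in P3 cells, a ratio of 1507 (95% counting interval 417 to 12453). These intervals cover counting error only. The ectonucleotidase ENTPD3, with 1 read in tissue and 3856 in P3 cells, belonged to the same set. The steepest falls ran the other way, to genes with no or hardly any reads in P3 cells. MT1A, a metallothionein that binds zinc and copper, was at 55.9, 28.2 and 25.0 CPM in tissue and had 0 reads in P3 cells, at least 934-fold lower. GDF5, the growth factor that marks developing joints, was at 36.2, 11.7 and 7.65 CPM in tissue and also had 0 reads in P3 cells, at least 444-fold lower. APOD, a secreted lipid-binding lipocalin, was at 1334, 784 and 304 CPM against 0.458 and 0.433 CPM (logFC -10.81, SE 0.71, adjusted p = 2.1e-06).

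Genes of the smooth muscle contractile apparatus were higher in P3 cells. Of 18 members, all tested, 14 were called higher and 0 lower, with a median logFC of 3.91. In 16 both P3 libraries lay above all tissue, against 32.1% of all tested genes. ACTA2, smooth muscle alpha-actin, was at 2.88, 35.6 and 18.4 CPM in tissue and at 5979.7 and 3414 CPM in P3 cells (logFC 7.95, SE 0.96, adjusted p = 6.4e-05). TAGLN, an actin-bundling protein of smooth muscle and stress fibres, was at 19.5, 71.4 and 34.0 CPM against 2991 and 2097 CPM (logFC 5.93, SE 0.52, adjusted p = 8.1e-06). In both genes outer tissue 2 was the lowest library, and the groups were far from overlapping. CNN1, a calponin that restrains actomyosin, was at 0, 1.31 and 0.0482 CPM against 292 and 156 CPM (logFC 8.89, SE 0.88, adjusted p = 4.2e-05). MYL9, a regulatory light chain of myosin, was at 0.972, 10.5 and 3.98 CPM against 623 and 386 CPM (logFC 6.60, SE 0.69, adjusted p = 2.4e-05). The tropomyosin TPM1, which lines actin filaments, was at 70.2, 80.7 and 122 CPM against 2302 and 2141 CPM (logFC 4.61, SE 0.27, adjusted p = 6.8e-07). P3 147 was the higher P3 library in each of these genes. ACTG2, enteric smooth muscle gamma-actin (logFC 8.25), DES, the intermediate filament desmin (6.85), LMOD1, a nucleator of actin filaments (6.84), and CALD1, caldesmon (4.15), were called as well. MYH11, the smooth muscle myosin heavy chain, was not called, since its 1.01, 43.7 and 3.5 CPM in tissue overlapped with 77.6 and 21.2 CPM in P3 cells (logFC 1.61, SE 1.10, adjusted p = 0.262), and it was called without tissue 3 (logFC 4.42, adjusted p = 0.0034). Summed over the list the level was 863, 1218 and 1225 CPM in tissue and 19505 and 13691 CPM in P3 cells. With 3 against 2 libraries an exact two-sided permutation test of such a sum cannot go below p = 0.1, the value found here.

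Contractile genes are classically driven by serum response factor through the CArG box, so the 250 bases before the RefSeq start of each member were searched for it on both strands in Sscrofa11.1. Of 18 promoters 2 held a match, against 256 of 19531 promoters of all genes (1.31%). The promoter of MYL9 is shown because this gene is among the called genes above, with the CArG box in capitals, on the plus strand at chr17:39787915-39788164. The match began 70 bases before the start of the gene and is a description of the sequence, not a measured binding site.
MYL9: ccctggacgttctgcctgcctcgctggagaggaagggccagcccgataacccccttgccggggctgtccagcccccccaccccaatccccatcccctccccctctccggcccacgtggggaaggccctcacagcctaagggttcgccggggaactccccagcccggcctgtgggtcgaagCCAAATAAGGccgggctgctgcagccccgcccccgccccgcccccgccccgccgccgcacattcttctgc

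Called genes of the non-muscle cytoskeleton and of the YAP and SRF list were higher in P3 cells as well. Of 22 tested members of the cytoskeleton and focal adhesion list 13 were called higher and 0 lower (median logFC 1.37), which fell to 7 against the 2-fold threshold itself. VCL, vinculin, which ties actin to adhesion sites, was at 54.6, 97.7 and 107 CPM against 749.5 and 525 CPM (logFC 2.88, SE 0.26, adjusted p = 1.0e-05). MYH9, the heavy chain of non-muscle myosin, was at 218, 453 and 342 CPM against 2156 and 1709.6 CPM (logFC 2.52, SE 0.31, adjusted p = 7.0e-05). Vinculin and myosin thus stood well above every tissue library, while the cytoplasmic actin ACTG1 did not reach the size threshold (1977, 2283 and 3010.0 CPM against 5076 and 4559.9 CPM, logFC 0.99, adjusted p = 0.00478, but 1.18 and called without tissue 6). Of 18 members of the list of YAP and SRF targets and their regulators 11 were called higher and 0 lower (median logFC 2.07), a count of 7 with only the 5 outer libraries or without P3 147, P3 148 or tissue 3, and of 5 against the 2-fold threshold. AMOTL2, an angiomotin that binds YAP, was at 67.3, 64.9 and 80.1 CPM against 669.6 and 677 CPM (logFC 3.25, SE 0.18, adjusted p = 6.4e-07). CTGF, a matricellular protein, was at 141, 131 and 97.3 CPM against 1340.4 and 469.6 CPM (logFC 2.88, SE 0.37, adjusted p = 1.1e-04). TEAD1, the DNA-binding partner of YAP, was at 29.5, 43.1 and 34.4 CPM against 169 and 176 CPM (logFC 2.27, SE 0.14, adjusted p = 1.1e-06). CTGF was much higher in P3 147 than in P3 148, and the other 2 genes were even between P3 libraries.

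Type I, III and V collagen transcripts were higher in P3 cells. Of 15 tested members of a list of fibrillar and other fibroblast collagens, which also holds type VI and VIII chains and leaves the type II and XI chains to the cartilage list, 11 were called higher and 0 lower (median logFC 2.86), and their summed level was 15667, 18707 and 15353 CPM in tissue and 175814 and 192779 CPM in P3 cells (exact two-sided permutation p = 0.1, the smallest possible). COL1A1, the main chain of type I collagen, was at 165, 674 and 1433 CPM against 71737 and 81998 CPM (logFC 6.67, SE 0.81, adjusted p = 6.6e-05). COL1A2, the other chain of type I collagen, was at 2271, 1988 and 3699 CPM against 40631 and 50255 CPM (logFC 4.10, SE 0.51, adjusted p = 7.6e-05). The 3 tissue libraries spread widely in COL1A1 with tissue 2 the lowest, and less in COL1A2. COL3A1, type III collagen, was at 3813, 2706 and 2529 CPM against 37404 and 35834 CPM (logFC 3.60, SE 0.49, adjusted p = 1.4e-04). COL5A1, a chain of the type V collagen that nucleates type I fibrils, was at 508, 554 and 304 CPM against 5817 and 5612 CPM (logFC 3.65, SE 0.32, adjusted p = 8.0e-06). COL6A3, of the pericellular type VI collagen, was not called (4428, 7262 and 4392 CPM against 3589 and 3627 CPM, logFC -0.57, SE 0.37, adjusted p = 0.238). Among 20 collagen-processing enzymes 7 were called higher, 3 of them against the 2-fold threshold, and 0 lower (1 by DESeq2, with another filter or without tissue 3), with a median logFC of 0.92. The cross-linking enzyme LOXL2 was at 46.1, 50.8 and 51.1 CPM against 910.4 and 838 CPM (logFC 4.15, SE 0.35, adjusted p = 6.6e-06).

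**Figure D1:**
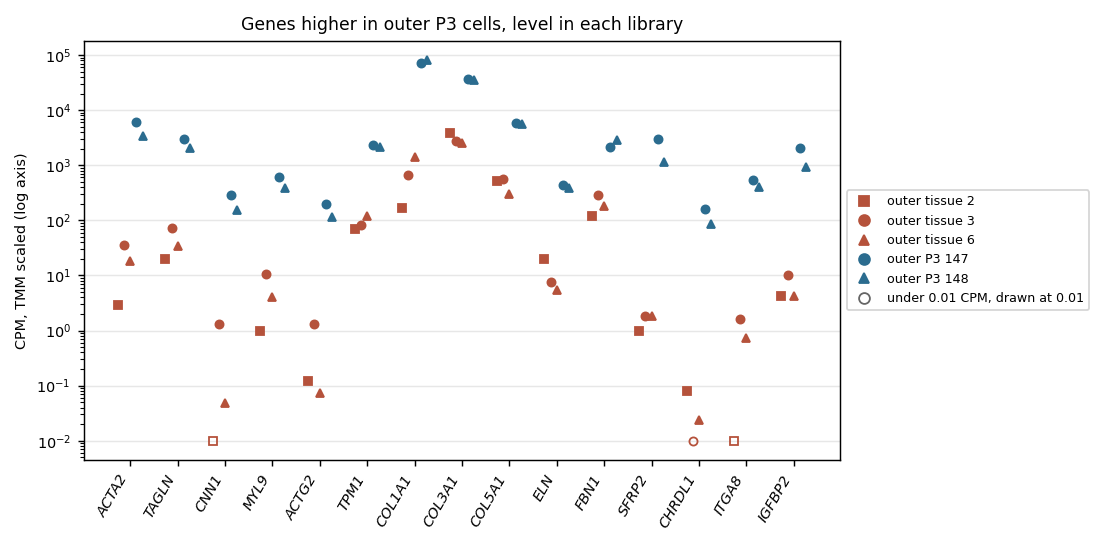
Level of 15 genes called higher in outer P3 cells, as TMM-scaled CPM on a log axis, with a point for each of the 3 outer tissue libraries (red) and the 2 outer P3 libraries (blue), and open symbols for values under 0.01 CPM. In every gene shown both P3 points lie above all tissue points, as for ACTA2 with 3414 and 5979.7 CPM above a tissue maximum of 35.6 CPM.

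The cartilage matrix genes were mostly lower in P3 cells. Of 25 tested members 16 were called lower and 1 higher, with a median logFC of -4.60 (2 higher by DESeq2). In 19 both P3 libraries lay below all tissue, against 29.3% of all tested genes. The lower count was 9 without P3 147 and 10 without P3 148. ACAN, the large aggregating proteoglycan of cartilage, was at 5851, 3155 and 1983 CPM against 159.9 and 125 CPM (logFC -4.69, SE 0.66, adjusted p = 1.8e-04). HAPLN1, the link protein that anchors aggrecan to hyaluronan, was at 2225, 814 and 589 CPM against 13.8 and 21.7 CPM (logFC -6.09, SE 0.91, adjusted p = 2.7e-04). COMP, a pentameric glycoprotein that binds collagen fibrils, was at 8714, 8442 and 5199 CPM against 1037 and 1031 CPM (logFC -2.85, SE 0.45, adjusted p = 3.8e-04). In these genes outer tissue 2 was the highest library, and the lowest tissue library was still several times above both P3 libraries. COL2A1, the type II collagen of hyaline cartilage, was at 3858, 1449 and 399 CPM against 6.76 and 5.35 CPM (logFC -8.29, SE 1.42, adjusted p = 6.7e-04), a call that ended without P3 147 (adjusted p = 0.012) or without P3 148 (adjusted p = 0.0142). COL11A2, a chain of type XI collagen, was at 562, 325 and 57.4 CPM against 0.242 and 0.26 CPM (logFC -10.27, SE 1.24, adjusted p = 6.6e-05). The other chain of type XI collagen, COL11A1, was the member called higher, at 419.7, 326 and 167 CPM against 1599.7 and 1728 CPM (logFC 2.45, SE 0.46, adjusted p = 0.00124), and not called against the 2-fold threshold itself. COL11A1 and COL11A2 therefore moved in opposite directions, both with groups that did not overlap. The smaller matrix proteins CHAD (logFC -4.60), CILP (-6.86) and CLEC3A (-10.38) were called lower too.

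**Figure D2:**
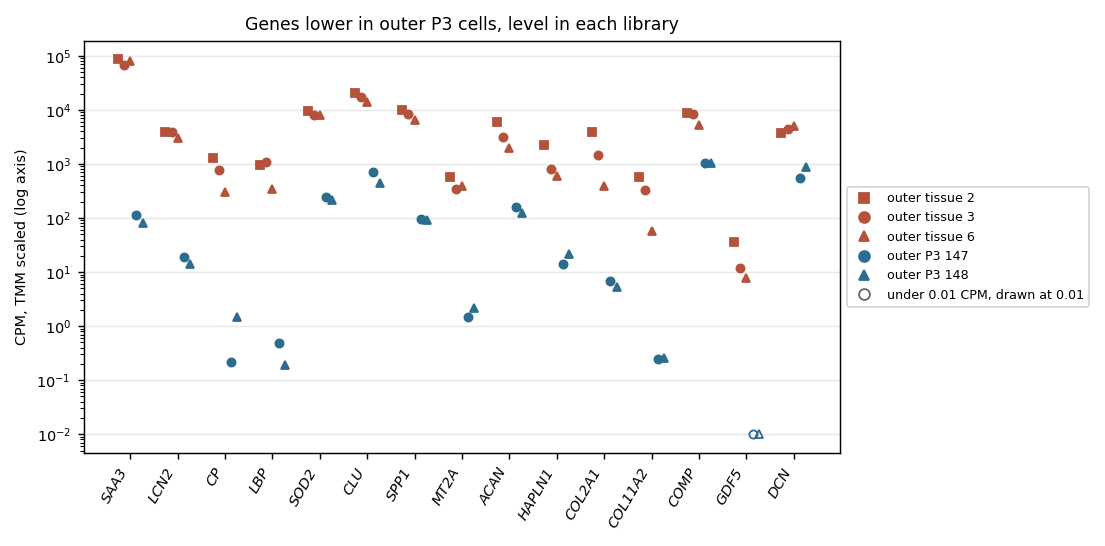
Level of 15 genes called lower in outer P3 cells, as TMM-scaled CPM on a log axis, with a point for each outer tissue library (red) and each outer P3 library (blue), and open symbols for values under 0.01 CPM. Both P3 points lie below all tissue points in every gene, as for ACAN with 125 and 159.9 CPM under a tissue minimum of 1983 CPM, and for GDF5 both P3 libraries had 0 reads.

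Other matrix genes went both ways. Among 10 small leucine-rich proteoglycans 1 was called higher and 1 lower (median logFC -0.81), with 3 lower by DESeq2 and 2 without tissue 6. DCN, decorin, which coats collagen fibrils, was at 3686, 4431 and 5056 CPM against 541 and 875 CPM (logFC -2.63, SE 0.34, adjusted p = 1.0e-04). ASPN, asporin, which binds TGF-beta, was at 8.42, 40.8 and 20.7 CPM against 612 and 714 CPM (logFC 4.83, SE 0.81, adjusted p = 5.9e-04). Biglycan (BGN) overlapped between the groups at 5147, 5559 and 3525 CPM against 5311 and 3148 CPM (logFC -0.17, SE 0.31, adjusted p = 0.705). Among 31 adhesive and elastic matrix glycoproteins 8 were called higher and 9 lower (median logFC 0.71), the latter count being 5 without P3 147 and 4 without P3 148. ELN, elastin, was at 20.01, 7.45 and 5.38 CPM against 435 and 386 CPM (logFC 5.24, SE 0.61, adjusted p = 5.5e-05). FBN1, the fibrillin of microfibrils, was at 121, 290.0 and 183 CPM against 2126 and 2895 CPM (logFC 3.66, SE 0.29, adjusted p = 4.8e-06). SPP1, osteopontin, a phosphoprotein of mineralised and inflamed tissue, was on the lower side at 9805, 8237 and 6480.2 CPM against 94.4 and 92.0 CPM (logFC -6.45, SE 0.66, adjusted p = 2.2e-05). LTBP3, which binds latent TGF-beta to microfibrils, was also lower at 940.4, 1137 and 834 CPM against 182 and 176 CPM (logFC -2.44, SE 0.19, adjusted p = 4.0e-06), as was FBLN1, an elastic fibre fibulin (logFC -4.85). Genes tied to elastic fibres thus stood on both sides, and the groups did not overlap in any of these 5.

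Of 17 tested basement membrane genes 8 were called higher and 2 lower (median logFC 1.59). The higher count depended on the setting, with 3 calls for only the 5 outer libraries, against the 2-fold threshold or without P3 147, 5 without P3 148 or tissue 2 and 4 without tissue 6, and the lower count was 1 against the 2-fold threshold or without either P3 library. NID1, nidogen, which links laminin to type IV collagen, was at 0.972, 11.9 and 9.33 CPM against 352 and 489 CPM (logFC 5.81, SE 0.88, adjusted p = 3.0e-04) and was called under every setting.

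The lists of transcription factors were mixed. Of 12 chondrogenic factors 4 were called lower, 2 of them against the 2-fold threshold, and 1 higher (median logFC -0.89). SOX5, which works with SOX9 on cartilage enhancers, was at 38.1, 37.1 and 26.5 CPM against 6.38 and 4.51 CPM (logFC -2.64, SE 0.32, adjusted p = 7.2e-05). SOX9 itself, the master regulator of cartilage, was at 144, 70.7 and 51.9 CPM against 25.9 and 41.3 CPM and missed the threshold (logFC -1.40, SE 0.44, adjusted p = 0.0229), though DESeq2 called it (adjusted p = 0.00347), as did edgeR without tissue 6 (adjusted p = 0.00935). SOX6 was at 12.7, 14.9 and 12.5 CPM against 14.2 and 13.2 CPM (logFC 0.03, SE 0.14, adjusted p = 0.867). The SOX genes were thus split, with SOX5 clearly separated, SOX9 separated by a narrow gap and SOX6 overlapping. RUNX2, a factor of hypertrophic cartilage and bone, was the member called higher (0, 0.853 and 0.41 CPM against 9.38 and 8.32 CPM, logFC 4.33, SE 0.97, adjusted p = 0.0038), but not with only the 5 outer libraries, against the 2-fold threshold or without P3 147, P3 148 or tissue 6. Of 20 tendon and mesenchymal factors 4 were called higher and 2 lower (median logFC 0.04), the higher ones numbering 0 with only the 5 outer libraries or against the 2-fold threshold, 2 without P3 147 and 1 without P3 148, and the lower ones 1 against the 2-fold threshold or without P3 148. The tendon factor SCX was at 13.2, 8.36 and 7.19 CPM against 11.4 and 9.15 CPM (logFC 0.10, SE 0.35, adjusted p = 0.846). The 18 genes of the HOX list include PITX1, TBX4 and TBX5, which are not HOX genes. Of the 18, HOXA9 and PITX1 were called lower and 0 higher (median logFC -0.72). The lower count was 0 without tissue 2, with only the 5 outer libraries or against the 2-fold threshold. It was 1 without tissue 3 or tissue 6. Both calls also depended on each P3 library. Over the fits without 1 library the logFC ranged from -1.23 to -0.91 for HOXA9 and from -1.27 to -0.83 for PITX1.

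Wnt modulators went both ways, secreted antagonists included. Of 21 tested members 7 were called higher and 5 lower (median logFC 0.95), the lower count being 2 with only the 5 outer libraries, against the 2-fold threshold, or without either P3 library. SFRP2, a secreted frizzled-related protein, was at 0.972, 1.85 and 1.81 CPM against 2953 and 1168 CPM (logFC 10.36, SE 0.93, adjusted p = 8.9e-06). Its relative SFRP4 was at 0.324, 1.08 and 0.579 CPM against 74.1 and 79.9 CPM (logFC 6.82, SE 0.47, adjusted p = 2.6e-06). Among the ligands WNT2B was at 0, 0.142 and 0.169 CPM against 23.9 and 16.3 CPM (logFC 7.40, SE 0.57, adjusted p = 9.0e-06). These 3 genes were near the bottom of the range in tissue and well detected in P3 cells. The antagonist FRZB was on the other side at 154, 41.0 and 20.04 CPM against 1.32 and 2.3 CPM (logFC -5.29, SE 1.22, adjusted p = 0.00449). DKK1, which blocks the Wnt coreceptor, was at 6.16, 1.36 and 0.796 CPM in tissue and had 0 reads in P3 cells, at least 63.8-fold lower. Both calls ended with only the 5 outer libraries, against the 2-fold threshold or without either P3 library. AXIN2, a negative feedback target of beta-catenin, was at 27.9, 21.1 and 13.3 CPM against 3.96 and 3.29 CPM (logFC -2.52, SE 0.35, adjusted p = 1.5e-04).

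Of 26 tested members of a list of BMP and GDF ligands and antagonists 9 were called higher and 7 lower (median logFC 1.01). The list also holds SMAD and ID genes, of which SMAD6 and SMAD7 were called higher and ID1 lower. The SMAD6 and ID1 calls ended with only the 5 outer libraries, against the 2-fold threshold or without tissue 6, and ID1 also without tissue 2. Both also depended on each P3 library. Over the fits without 1 library the logFC ranged from 0.94 to 1.31 for SMAD6 and from -1.18 to -0.89 for ID1. The higher count was 5 with only the 5 outer libraries or without P3 148, 4 without P3 147 and 3 against the 2-fold threshold, and the lower count was 3 or 4 under the same settings. Besides CHRDL1 and GDF5, NBL1, a DAN-family BMP antagonist, was at 4642, 2675 and 3054 CPM against 249 and 199 CPM (logFC -3.95, SE 0.40, adjusted p = 2.2e-05). FSTL1, a follistatin-like glycoprotein, was at 317, 451 and 352 CPM against 1496 and 1421 CPM (logFC 1.97, SE 0.30, adjusted p = 3.3e-04), a call that ended against the 2-fold threshold itself. The antagonists CHRDL1 and NBL1 thus stood on opposite sides. Of 11 members of a TGF-beta list 3 were called higher, 1 of them against the 2-fold threshold, and 3 lower (median logFC -0.72). Beside ligands and receptors this list holds SMAD3, SKIL and LRRC32, and SKIL and LRRC32 were called higher. LRRC32 was not called by DESeq2, with only the 5 outer libraries, against the 2-fold threshold or without tissue 6. Its call also depended on each P3 library, with a logFC from 2.68 to 4.84 over the fits without 1 library. The ligand TGFB1 was at 59.5, 54.2 and 60.8 CPM against 7.06 and 6.2 CPM (logFC -3.13, SE 0.30, adjusted p = 1.4e-05). The ligand TGFB3 was at 21.0, 21.6 and 33.6 CPM against 204 and 182 CPM (logFC 2.92, SE 0.28, adjusted p = 1.3e-05). TGFBR3, the co-receptor betaglycan, was at 824, 667 and 737 CPM against 32.9 and 33.0 CPM (logFC -4.49, SE 0.39, adjusted p = 7.9e-06). The pair of ligands therefore differed in direction, with little spread inside either group. Of 10 tested members of a list of insulin-like growth factors and binding proteins 4 were called higher and 2 lower (median logFC 0.26). The list also holds receptors and PAPPA, and PAPPA was called higher. The higher count was 2 with only the 5 outer libraries. The lower count was 1 with only the 5 outer libraries, against the 2-fold threshold or without tissue 3. The call that ended was IGFBP3, which also depended on each P3 library, with a logFC from -5.22 to -3.64 over the fits without 1 library. IGFBP2, an IGF carrier, was at 4.25, 10.4 and 4.17 CPM against 2059.6 and 925 CPM (logFC 7.89, SE 0.75, adjusted p = 1.2e-05), while IGFBP6, which prefers IGF2, was at 184, 129 and 212 CPM against 32.3 and 19.96 CPM (logFC -2.75, SE 0.30, adjusted p = 3.7e-05).

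Acute phase transcripts, which liver and stressed connective tissue make during inflammation, were lower in P3 cells by far. Of 17 listed genes 13 were tested, 6 were called lower and 0 higher (1 by DESeq2 or without tissue 2), with a median logFC of -7.07, and the summed level was 93020, 84430 and 107004 CPM in tissue against 166 and 116 CPM in P3 cells (exact two-sided permutation p = 0.1, the smallest possible). SAA3, a serum amyloid A, was at 85590.5, 68231 and 81792 CPM against 115 and 81.2 CPM (logFC -9.65, SE 0.94, adjusted p = 1.5e-05). SAA1 was at 45.0, 9724 and 21138 CPM against 20.8 and 11.7 CPM and was not called by edgeR (logFC -9.31, SE 3.76, adjusted p = 0.0657) but by DESeq2 (adjusted p = 2.9e-04), with outer tissue 2 far below the other tissue. Serum amyloid A genes are near-identical copies, so reads may have been split between them or dropped, and the level of each is uncertain. LCN2, a lipocalin that binds bacterial siderophores, was at 3913, 3969.7 and 3017 CPM against 18.9 and 14.2 CPM (logFC -7.78, SE 0.96, adjusted p = 7.4e-05). CP, the copper carrier ceruloplasmin, was at 1300.4, 765 and 307 CPM against 0.216 and 1.47 CPM (logFC -9.82, SE 0.88, adjusted p = 8.9e-06). LBP, which binds lipopolysaccharide, was at 953, 1093 and 349.7 CPM against 0.485 and 0.195 CPM (logFC -11.22, SE 1.05, adjusted p = 1.2e-05). In LCN2, CP and LBP no P3 library came near tissue.

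Complement genes were often called lower, while the related lists held few calls or calls in both directions. Among all tested genes 8.36% were called higher and 8.3% lower. Of 16 tested complement genes 10 were called lower and 0 higher (median logFC -2.77), and the lower count was 5 against the 2-fold threshold or without P3 148. CLU, clusterin, a chaperone that inhibits the terminal complement complex, was at 20117, 17266 and 14154 CPM against 714 and 444 CPM (logFC -4.89, SE 0.48, adjusted p = 1.5e-05). CFB, factor B of the alternative pathway, was at 34.4, 41.7 and 36.4 CPM against 1.86 and 2.67 CPM (logFC -4.04, SE 0.60, adjusted p = 2.6e-04). Tissue libraries lay close together in both genes, and far above P3 cells. Of 16 NF-kB feedback genes 2 were called lower and 0 higher (5 lower by DESeq2, median logFC -0.39), namely SOD2, the mitochondrial superoxide dismutase, at 9385, 7985 and 8005 CPM against 248 and 218 CPM (logFC -5.18, SE 0.62, adjusted p = 6.1e-05), and NFKBIA, the inhibitor of NF-kB (logFC -1.86, SE 0.26, adjusted p = 1.5e-04). Of 21 cytokines and chemokines 2 were called higher and 4 lower (median logFC -0.74), with 2 lower without P3 147 and 1 higher without P3 148. The chemokine CCL20 was at 104, 58.6 and 68.2 CPM against 0.135 and 0.238 CPM (logFC -8.63, SE 0.90, adjusted p = 2.5e-05). TNFRSF11B, osteoprotegerin, which blocks osteoclast formation, was at 183, 93.0 and 112 CPM against 0.647 and 0.217 CPM (logFC -8.26, SE 0.91, adjusted p = 3.5e-05). The cytokine LIF went the other way at 1.13, 1.11 and 2.44 CPM against 11.4 and 21.8 CPM (logFC 3.39, SE 0.44, adjusted p = 1.0e-04). Of 25 interferon-stimulated genes 3 were called lower and 0 higher (median logFC -0.37), with 1 lower for only the 5 outer libraries or without P3 147, 0 lower without P3 148 and 1 higher without tissue 6. Of 21 tested members of a list of metalloproteinases and their inhibitors 3 were called lower and 0 higher (median logFC -0.80). The 3 were MMP12, TIMP3 and the serine protease HTRA1. The HTRA1 call ended with only the 5 outer libraries or against the 2-fold threshold, and also depended on P3 148. The TIMP3 call depended on each P3 library. Over the fits without 1 library the logFC ranged from -3.20 to -2.57 for TIMP3 and from -2.30 to -1.66 for HTRA1. The lower count was 8 by DESeq2, 6 with no filter on low counts and 5 with only the 5 outer libraries. The higher count was 1 by DESeq2, with another scaling or filter, or without any 1 tissue library. The collagenase MMP13 was at 1178, 1329 and 1009.6 CPM against 39.7 and 13.1 CPM, a wide gap that missed the threshold (logFC -5.48, SE 1.46, adjusted p = 0.0101) and passed it by DESeq2 (adjusted p = 6.6e-05), with only the 5 outer libraries (0.00299) and with another scaling or filter.

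**Figure D3:**
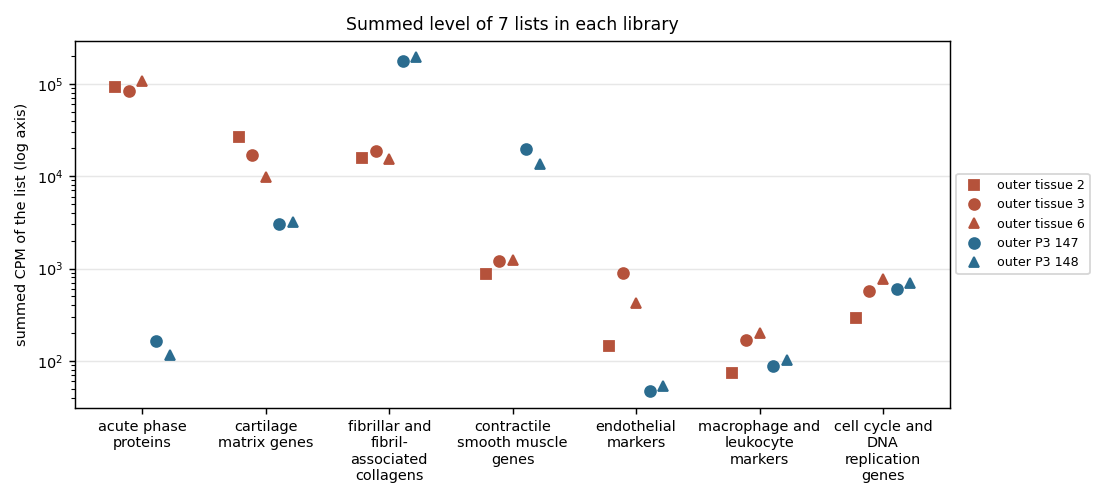
Summed TMM-scaled CPM of 7 gene lists on a log axis, with a point for each outer tissue library (red) and each outer P3 library (blue). Acute phase proteins sum to at least 84430 CPM in tissue and at most 166 CPM in P3 cells, collagens to at most 18707 CPM in tissue and at least 175814 CPM in P3 cells, and the cell cycle list overlaps.

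Metal-binding and antioxidant genes were lower in P3 cells. Of 22 tested members of this list, which also holds iron genes, 10 were called lower and 0 higher (median logFC -0.86). MT2A, a metallothionein, was at 563, 337 and 398 CPM against 1.45 and 2.12 CPM (logFC -7.91, SE 0.61, adjusted p = 4.0e-06). FTH1, the heavy chain of the iron store ferritin, was at 16724, 11168 and 11039 CPM against 2352 and 2320.2 CPM (logFC -2.47, SE 0.30, adjusted p = 6.1e-05). GPX1, a glutathione peroxidase, was at 859, 819 and 976 CPM against 133 and 130.3 CPM (logFC -2.75, SE 0.30, adjusted p = 3.2e-05). P3 libraries were nearly equal in FTH1 and GPX1.

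Called genes of glycolysis and nearly all called genes of cholesterol and fatty acid synthesis were lower in P3 cells, while hypoxia genes were mixed. Of 20 glycolysis genes 6 were called lower and 0 higher (median logFC -0.70). In 15 both P3 libraries lay below all tissue, against 29.3% of all tested genes. GAPDH, a glycolytic enzyme often used as a reference gene, was at 3689, 3372 and 3547 CPM against 977 and 976 CPM (logFC -1.86, SE 0.26, adjusted p = 1.9e-04). The groups were tight and far apart in this gene. Of 20 hypoxia response genes 1 was called higher and 1 lower (median logFC -0.18), with 2 lower by DESeq2, and the lower gene was NDUFA4L2, a mitochondrial protein induced at low oxygen, at 366, 203 and 134 CPM against 1.70 and 1.24 CPM (logFC -7.32, SE 0.61, adjusted p = 6.0e-06). Of 30 cholesterol and fatty acid synthesis genes 17 were called lower and 1 higher (median logFC -1.26), the lower count being 6 against the 2-fold threshold and 11 without P3 148, and the higher count 0 against that threshold or with only the 5 outer libraries. HMGCS1, which makes the precursor of mevalonate, was at 379, 366 and 374 CPM against 96.6 and 78.2 CPM (logFC -2.09, SE 0.18, adjusted p = 8.3e-06). Tissue libraries were nearly equal in this gene and stood well above both P3 libraries.

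Mitochondrially encoded and ribosomal transcripts were lower by smaller steps. Of 13 mitochondrially encoded genes 8 were called lower and 0 higher (median logFC -1.23), 5 with only the 5 outer libraries, 4 without P3 147 and 3 against the 2-fold threshold. ATP6, a subunit of the mitochondrial ATP synthase, was at 2790.2, 1809 and 2379 CPM against 437 and 589 CPM (logFC -2.18, SE 0.28, adjusted p = 1.1e-04). COX1, of cytochrome c oxidase, was at 4976, 3892 and 5572 CPM against 4439 and 7103 CPM and overlapped (logFC 0.26, SE 0.26, adjusted p = 0.444). Among 38 nuclear genes of oxidative phosphorylation 1 was called lower and 0 higher (median logFC -0.23), a count of 0 with only the 5 outer libraries, against the 2-fold threshold or without P3 148, and of 2 without tissue 3. Of 49 tested members of the cytosolic ribosomal protein list 18 were called lower and 0 higher (median logFC -0.84). In 45 both P3 libraries lay below all tissue, against 29.3% of all tested genes. The list also holds EEF2, EEF1G and TPT1, and TPT1 was among the calls. The 18 calls became 9 with only the 5 outer libraries or without P3 147, 12 without P3 148 and 0 against the 2-fold threshold, so the shift was broad but close to 2-fold. Extraction differed between tissue and cells, and its part in these values was not tested.

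Targets of the amino acid stress factor ATF4, together with the aminoacyl-tRNA synthetases that it induces, were higher in P3 cells. Of 28 members, all tested, 15 were called higher and 0 lower (median logFC 1.03). In 24 both P3 libraries lay above all tissue, against 32.1% of all tested genes. P3 148 was the higher library, with a summed level of 6605 CPM against 4526 CPM in P3 147 and 2888, 3253 and 2806 CPM in tissue, and the count was 5 without it, 8 with only the 5 outer libraries and 2 against the 2-fold threshold. WARS, the tryptophanyl-tRNA synthetase, was at 62.1, 76.6 and 71.8 CPM against 294 and 525 CPM (logFC 2.54, SE 0.26, adjusted p = 2.0e-05). CHAC1, which degrades glutathione and is induced by ATF4, was at 30.7, 26.5 and 22.6 CPM against 72.8 and 104 CPM (logFC 1.74, SE 0.22, adjusted p = 8.6e-05). ATF4, whose own control is largely translational, was at 641, 665 and 547 CPM against 527 and 607 CPM (logFC -0.12, SE 0.15, adjusted p = 0.546). Its transcript overlapped between the groups while WARS and CHAC1 did not.

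The motif TGATGNAA, where ATF4 binds with a C/EBP partner, was searched on both strands and found in the 250-base promoters of CHAC1 and SLC7A11, 2 of 26 list members with a RefSeq promoter, against 469 of 19531 (2.4%) of all promoters. CHAC1 is shown because its call held under every setting. It lies on the minus strand of Sscrofa11.1 at chr1:130363333-130363582, and the capitals mark the reverse complement of the motif, which began 165 bases before the start.
CHAC1: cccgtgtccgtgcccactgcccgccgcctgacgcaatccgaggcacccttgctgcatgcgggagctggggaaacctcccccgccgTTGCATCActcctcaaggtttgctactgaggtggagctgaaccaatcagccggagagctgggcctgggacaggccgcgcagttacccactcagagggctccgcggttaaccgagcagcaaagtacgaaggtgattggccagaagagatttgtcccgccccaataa

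**Figure D4:**
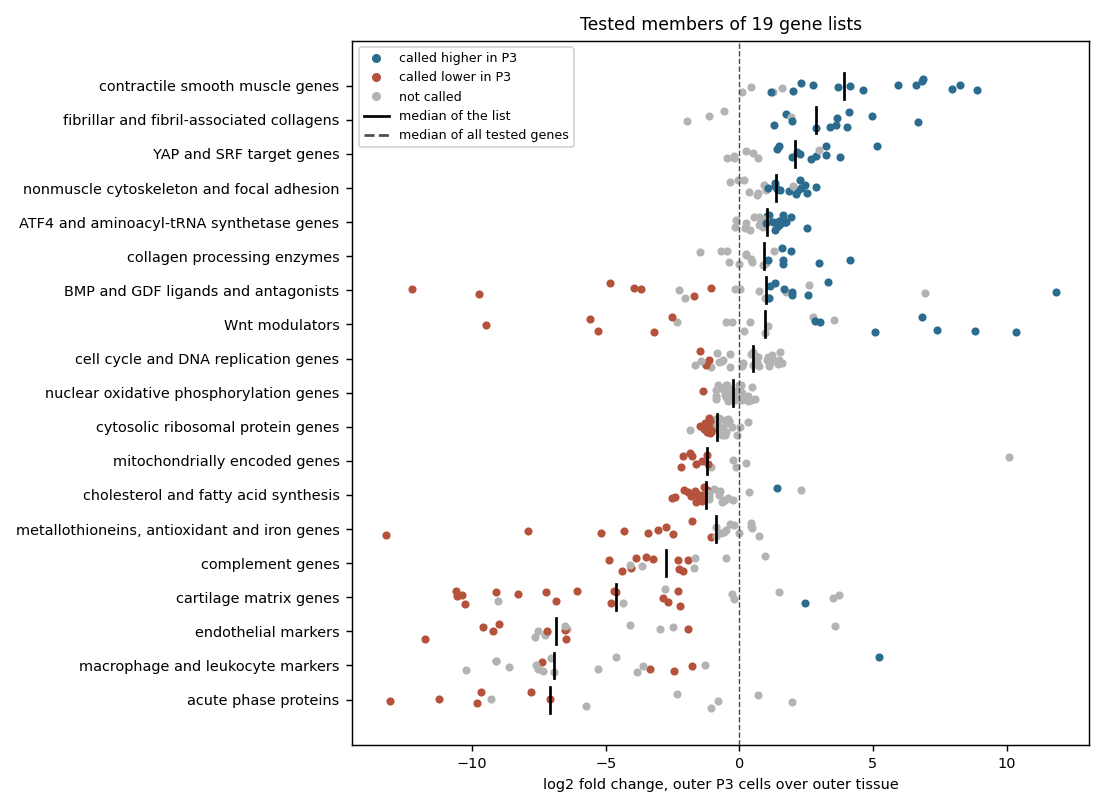
The logFC of outer P3 cells over outer tissue for each tested member of 19 gene lists, with called genes in blue (higher in P3) and red (lower in P3), a black bar at the median of each list and a dashed line at the median of all tested genes (-0.01). Contractile genes have the highest median shown (3.91) and acute phase proteins the lowest (-7.07).

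Few proliferation genes passed the test in the outer zone. Of 31 tested cell cycle and replication genes 3 were called lower and 0 higher (median logFC 0.49), and the 3 calls fell to 0 with only the 5 outer libraries, against the 2-fold threshold, or without either P3 library, while leaving out tissue 6 gave 3 higher and DESeq2 1. TOP2A, the topoisomerase of dividing cells, was at 9.40, 30.4 and 47.9 CPM against 31.5 and 62.5 CPM (logFC 0.68, SE 0.53, adjusted p = 0.331). CCNB1, the mitotic cyclin B1, was at 3.97, 11.4 and 27.6 CPM against 24.0 and 39.4 CPM (logFC 1.14, SE 0.60, adjusted p = 0.147). Outer tissue 6 reached into the P3 range in both genes, and outer tissue 2 was the lowest library. Of 15 cell cycle inhibitors and senescence genes 4 were called higher and 0 lower (1 by DESeq2 or without tissue 2, median logFC 0.37), with 2 higher without tissue 2 or P3 147 and 1 with only the 5 outer libraries, against the 2-fold threshold or without P3 148. GADD45B, a stress-induced growth arrest gene, was at 14.9, 9.61 and 10.3 CPM against 69.5 and 54.3 CPM (logFC 2.42, SE 0.23, adjusted p = 1.3e-05).

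Cell surface receptors and channels went both ways. Of 16 integrins 5 were called higher and 3 lower (median logFC 0.38), with 3 higher against the 2-fold threshold. ITGA8, a subunit of an RGD receptor of contractile mesenchymal cells, was at 0, 1.65 and 0.724 CPM against 532 and 407 CPM (logFC 9.13, SE 0.71, adjusted p = 9.8e-06). ITGA11, of a receptor for fibrillar collagen on fibroblasts, was at 7.33, 15.6 and 13.6 CPM against 379 and 158 CPM (logFC 4.46, SE 0.54, adjusted p = 6.5e-05). ITGA10, of the collagen receptor of chondrocytes, was at 371, 249.5 and 209.9 CPM against 17.4 and 21.7 CPM (logFC -3.82, SE 0.31, adjusted p = 5.5e-06). The chondrocyte collagen receptor subunit was thus lower and the fibroblast one higher, each without overlap. Of 20 ion channels 5 were called lower and 2 higher (median logFC -0.50), the lower ones numbering 3 with only the 5 outer libraries and the higher ones 1 there and 0 against the 2-fold threshold or without tissue 2, tissue 6 or either P3 library. KCNMA1, the large-conductance potassium channel, was at 131, 109.5 and 112 CPM against 14.9 and 26.6 CPM (logFC -2.50, SE 0.28, adjusted p = 3.8e-05).

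Markers of other cell types that outer tissue can hold were examined as well. Of 20 endothelial markers 18 were tested, with 8 called lower and 0 higher (median logFC -6.86), and the summed level was 144, 890 and 419 CPM in tissue against 47.4 and 53.1 CPM in P3 cells. Without outer tissue 2 the lower count was 15, while it was 2 with only the 5 outer libraries or without either P3 library, 4 against the 2-fold threshold and 12 by DESeq2, and the higher count was 1 by DESeq2, without tissue 2, or with another scaling or filter. VWF, the platelet-binding factor stored in endothelium, was at 0, 82.3 and 25.7 CPM against 0.539 and 0.282 CPM, so that tissue 2 lay below both P3 libraries (logFC -6.46, SE 1.73, adjusted p = 0.0104), and it was called without tissue 2 (adjusted p = 4.0e-05), by DESeq2 (0.00121) and with no filter on low counts (0.00752). PECAM1, an adhesion protein of endothelial junctions, was at 8.42, 207 and 82.2 CPM against 10.7 and 14.5 CPM (logFC -2.97, SE 0.90, adjusted p = 0.0196) and was called without tissue 2 (adjusted p = 3.5e-04) or by DESeq2 (0.00298). TIE1, an endothelial receptor kinase, was at 7.49, 26.0 and 12.5 CPM against 0.216 and 0.13 CPM (logFC -6.47, SE 0.73, adjusted p = 4.2e-05). Tissue 2 was the lowest tissue library in all 3 genes. Of 19 tested macrophage and leukocyte markers 4 were called lower and 1 higher (median logFC -6.95), with 14 lower without tissue 2, 9 by DESeq2 and 2 with only the 5 outer libraries, against the 2-fold threshold or without either P3 library. LAPTM5, a lysosomal protein of blood cells, was at 10.6, 32.3 and 30.1 CPM against 0.0808 and 0.195 CPM (logFC -7.38, SE 1.19, adjusted p = 4.5e-04). CD86, a costimulatory ligand of antigen-presenting cells, was the member called higher, at 0, 2.07 and 3.67 CPM against 68.9 and 80.7 CPM (logFC 5.22, SE 0.83, adjusted p = 3.9e-04), but not with only the 5 outer libraries (adjusted p = 0.014). It made up most of the summed level of this list in P3 cells, 89.0 and 102 CPM against 74.5, 168 and 198 CPM in tissue.

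The remaining markers were low or mixed. Of 8 mural cell markers 2 were called lower and 0 higher (median logFC -3.43), with 1 lower against the 2-fold threshold and 0 lower without either P3 library, and with 2 higher by DESeq2 or without tissue 3 and 1 without tissue 2. Of 6 tested osteoclast markers 2 were called lower (4 without tissue 2, 1 with only the 5 outer libraries or without either P3 library), of 6 adipocyte markers 1, and of 5 Schwann cell markers 1. Of 6 tested T, B and mast cell markers 0 were called by edgeR, and 1 lower by DESeq2 or without tissue 2. Of 7 erythroid markers 0 were tested. The summed endothelial markers separated the groups while the summed macrophage markers overlapped, and the part of these cells in the other lower genes was not tested.

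Inner zone cells and tissue gave a parallel comparison in other libraries, partly with the same replicate numbers. It called 4033 genes (25.7%), 2137 higher and 1896 lower in P3 cells. Of the 2617 outer calls 2337 were also called in the inner zone in the same direction, which is 89.3% of the outer and 57.9% of the inner calls, 0 were called in opposite directions and 280 were not called in the inner zone. A test of the difference between zones (interaction) called 0 genes by edgeR, with a lowest adjusted p of 0.458 and 1173 genes at an unadjusted p under 0.05. On simulated counts this test found 44 of 100 differences of 4-fold, so 0 calls do not show that the zones changed alike. The interaction called 17 genes by DESeq2, 15 without outer tissue 2 and 20 with the replicate number as a block. With the block only libraries that share a number inform the difference, namely tissue 2 and 3 and P3 147 and 148 of each zone. Outer tissue 6, inner tissue 5 and inner P3 149 have no partner and do not enter it, while outer tissue 2 does.

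COL1A1 was called in each of those other fits of the interaction, with an adjusted p of 2.2e-11 by DESeq2, 0.0038 without outer tissue 2 and 0.00319 with the replicate block. Its mean was 9.55 ± 6.73 CPM (SD, n = 3) in inner tissue and 757 ± 638 CPM (n = 3) in outer tissue, but 105260.0 ± 6996 CPM (n = 3) and 76868 ± 7256 CPM (n = 2) in the P3 cells, so the logFC was 13.43 in the inner and 6.67 in the outer zone. ACTA2 rose by a logFC of 12.30 in the inner zone, from a mean of 0.778 CPM in tissue, and by 7.95 in the outer zone, from a mean of 18.96 CPM, and this difference was called only with the replicate block (adjusted p = 0.00319, against 0.574 by edgeR without it). CRABP1, a cytoplasmic carrier of retinoic acid, was at 50.6, 45.8 and 109 CPM in outer tissue against 8.19 and 22.8 CPM in outer P3 cells (logFC -2.14, adjusted p = 0.0118, called by DESeq2 at 4.5e-04 and with no filter on low counts at 0.00889), while the inner zone logFC was 2.41 (adjusted p = 0.00222). The signs were opposite, but the difference was called by DESeq2 and with the block only, and not by edgeR without it (adjusted p = 0.541).

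**Figure D5:**
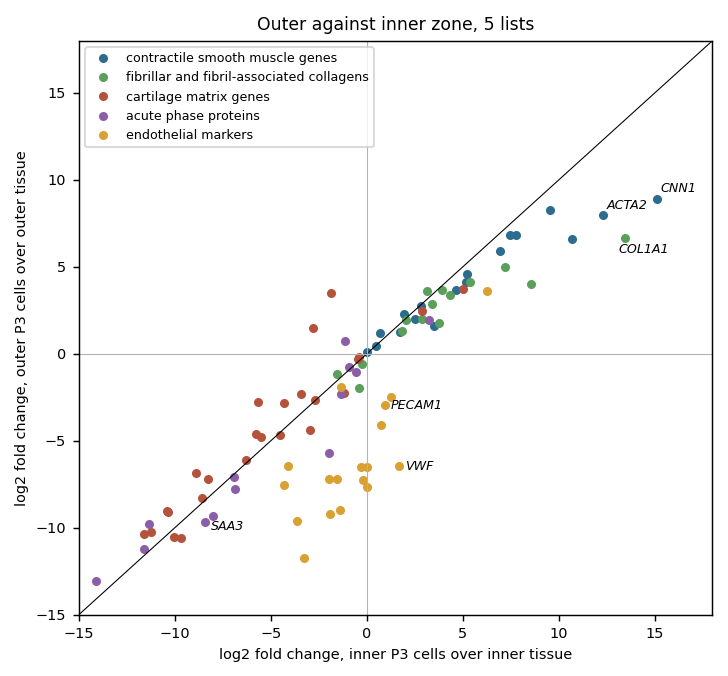
The logFC of P3 cells over tissue in the outer zone (vertical) against that in the inner zone (horizontal) for the tested members of 5 gene lists, where the diagonal marks equal values. COL1A1 (6.67 outer, 13.43 inner), ACTA2 (7.95 and 12.30) and CNN1 (8.89 and 15.09) lie below the diagonal, and SAA3 (-9.65 and -8.45) lies close to it.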

How the data were processed

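Polyadenylated RNA was sequenced with a KAPA Stranded mRNA-Seq kit. The authors deposited raw counts per gene, made with Trim Galore, cutadapt, a STAR alignment to Sscrofa11.1 that kept uniquely placed reads, and HTSeq. Tool versions and the strand setting are not given in the sources used here, so overlapping and antisense genes are uncertain. The authors' normalized tables were not used, and 0 count columns lacked a sample. Of 25880 genes 7608 had 0 reads and 15707 with at least 10 reads were tested. Symbols came from the file (17624 genes), the reference (1056) and the paper (SAA3, SAA1 and FTH1). MMP1, PODN, CCL8 and SLC39A14 were not matched, because their identifiers carry another symbol in the file.

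Groups came from the sample labels. All 14 libraries entered a quasi-likelihood F test with TMM scaling (edgeR 4.0.16, R 4.3.3), adjusted by Benjamini and Hochberg over all tested genes, and an adjusted p is edgeR's unless DESeq2 (1.42.0) is named. On simulated counts for the outer comparison 76 of 100 genes with a 4-fold change, 15 of 100 with a 2-fold change and 1 of 15507 unchanged genes were called. Per the study, the tissue explants came from 3 menisci with 1 explant per zone each. Whether the P3 libraries are separate cultures is not stated beyond their numbers, so p-values measure the spread between these libraries. Groups with 0 reads were set to 3 reads over the group (0.0296 CPM in outer tissue, 0.036 CPM in outer P3 cells).

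Members and lists were chosen with earlier results of these data known. Named genes are the 12 largest called changes each way (at least 10 CPM in the higher group, groups apart), up to 5 called members and the most abundant uncalled member of each list, list members with 0 reads in a group, genes of the study's text and PCR and those of lowest interaction p, though not all are printed. ACTG2, AXIN2, BGN, CCNB1, CHAC1, CILP, DES, ELN, FBLN1, HAPLN1, LMOD1, LTBP3, MMP13, MT2A, MYH11, MYL9, NID1, SCX, SOX6, TIE1, TOP2A, VCL, VWF and WNT2B fall outside this rule and were chosen after their values were seen. Some genes and sequences are not reported here.

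Tissue and P3 libraries share no replicate number, so only the interaction could take a block. Inner and outer libraries with equal numbers correlated, about their group means, at 0.221 and 0.257 in cells and at 0.457 and 0.27 in tissue. All were over 0.1, and the block treated the numbers as pairs. Inner tissue 3 with outer tissue 6, of unequal numbers, gave 0.282. With only 2 outer P3 libraries the values in cells mirror each other, as inner P3 147 gave 0.221 with outer P3 147 and -0.221 with outer P3 148. These correlations therefore cannot show whether libraries with equal numbers share a donor. The alternatives were median-of-ratios scaling, DESeq2, edgeR's filterByExpr, keeping all genes with a read, a fit on the compared libraries alone, the test against a 2-fold change (glmTreat), and leaving out each library.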

Additional observations from a re-analysis of the deposited data

How the results depend on the processing

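The number of called genes was 2617 (1313 higher and 1304 lower in P3 cells). Fitting only the 5 outer libraries gave 1516 (803 higher, 713 lower) and testing against the 2-fold threshold itself 945 (450 higher, 495 lower). Leaving out 1 library gave 1592 to 2518 calls, 910 to 1270 higher and 682 to 1297 lower, the lowest without P3 148 and then P3 147 (1688 calls, 758 lower). Median-of-ratios scaling, DESeq2 and both other filters stayed within 1.5-fold. The interaction called 0 genes, but 17 by DESeq2, 20 with the replicate block and 0 to 15 when 1 library was left out, 15 of them without outer tissue 2. The causes were not tested.

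Of 346 called list members and named genes 145 kept their call under every alternative and 201 lost it under at least 1. The 2-fold test ended 167, only the 5 outer libraries 112, leaving out P3 147 114, P3 148 124, tissue 2 40, tissue 3 26 and tissue 6 31, and DESeq2 2. None of the 346 changed direction under these alternatives. Of simulated 4-fold changes 76 of 100 were found, in a simulation that changed fewer genes than were called here. Of simulated 2-fold changes 15 of 100 were found. These lie on the size threshold itself, so their yield does not show what 3 against 2 libraries miss.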

Other observations

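Lists of glycosaminoglycan and prostaglandin synthesis were mixed. Of 28 genes of glycosaminoglycan synthesis, hyaluronan synthases included, 6 were called lower and 3 higher (median logFC -0.24), but only 1 lower against the 2-fold threshold or without P3 147, 2 without P3 148 and 3 without tissue 2, and 0 higher against that threshold and 1 with only the 5 outer libraries. Of 12 prostaglandin genes 3 were called in each direction (median logFC -0.67), 1 in each direction against the 2-fold threshold or without P3 148, 1 lower without P3 147 and 1 higher with only the 5 outer libraries. PTGIS, prostacyclin synthase, was at 339.8, 223 and 246 CPM in tissue 2, 3 and 6 against 82.5 and 64.6 CPM in P3 147 and 148 (logFC -1.87, SE 0.26, adjusted p = 1.6e-04). PLA2G4A, the phospholipase that frees arachidonic acid, was at 9.64, 10.4 and 16.2 CPM against 46.9 and 57.2 CPM (logFC 2.10, SE 0.25, adjusted p = 6.1e-05). The synthase was thus lower and the phospholipase higher, without overlap.

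Of 25 genes of the secretory pathway 3 were called higher, 1 of them against the 2-fold threshold, and 1 lower (0 against it), around a median logFC of 0.11. CREB3L1, a membrane-bound factor that drives collagen secretion, was at 69.1, 61.0 and 62.4 CPM against 397 and 396 CPM (logFC 2.63, SE 0.39, adjusted p = 2.7e-04). Of 26 lysosomal genes 1 was called higher (0 against the 2-fold threshold) and 1 lower (median logFC -0.08), the latter being CTSD, the protease cathepsin D, at 5823, 4053 and 3802 CPM against 1102 and 772 CPM (logFC -2.28, SE 0.36, adjusted p = 3.9e-04).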
